A study of Mus musculus with 12 samples.

Results

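Apolipoproteins are the proteins that coat lipoproteins, the particles that carry triglyceride and cholesterol through blood, and the liver is a main source of them. The 10 genes described here encode 9 apolipoproteins (Apoa1, Apoa2, Apoa4, Apoa5, Apob, Apoc3, Apoe, Apof and Apom) and the microsomal triglyceride transfer protein (Mttp), which loads lipid onto apolipoprotein B. They were chosen by name out of 41325 genes listed per library, and all 10 had enough reads to be tested. RNA was measured by poly(A) sequencing in 12 whole-liver samples of C57BL/6J mice of WT genotype, 4 in each of 3 groups. Each sample is called a liver below. The CDDO-Me group had nonalcoholic steatohepatitis (NASH), was CDAHFD-treated, and received CDDO-Me at 10 mg/kg by mouth for 8 weeks. The NASH vehicle group had the same diet-induced disease and received vehicle, and the control group, not labelled as NASH, received vehicle. CDAHFD is the usual short name of a choline-deficient, amino-acid-defined, high-fat diet, and CDDO-Me (bardoxolone methyl) is a synthetic triterpenoid known to activate the transcription factor NRF2. The labels give neither age nor the control diet, and they do not say whether the 4 samples of a group were separate animals. The p-values therefore rest on the spread between samples, which need not be the spread between animals.

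Apolipoprotein B forms the backbone of very-low-density lipoprotein (VLDL), which hepatocytes assemble in the endoplasmic reticulum with Mttp and secrete. Apolipoproteins A-I and A-II are the main proteins of high-density lipoprotein (HDL), and apolipoproteins C-III, A-V and E act on triglyceride-rich particles after secretion. Apoa1, Apoc3, Apoa4 and Apoa5 lie side by side in a cluster that is conserved between mice and humans.

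In GRCm38 coordinates the cluster spans 43.3 kb of chromosome 9 (46228580 to 46271919). Apoa1 (ENSMUSG00000032083) lies at 46228580 to 46230466, Apoa4 (ENSMUSG00000032080) at 46240696 to 46243459 and Apoa5 (ENSMUSG00000032079) at 46268633 to 46271919, all on the plus strand. Apoc3 (ENSMUSG00000032081) lies between Apoa1 and Apoa4 at 46232933 to 46235636 on the minus strand. Elsewhere, Apob (ENSMUSG00000020609) lies at chr12:7977648-8016835 on the plus strand and Mttp (ENSMUSG00000028158) at chr3:138089854-138144968 on the minus strand. Apoa2 lies at chr1:171225054-171226379 (+), Apoe at chr7:19696109-19699188 (-), Apof at chr10:128268671-128270153 (+) and Apom at chr17:35128997-35132050 (-). RefSeq start regions of GRCm38.p6, 250 bases before to 50 bases after the start, were matched by symbol for 8 of the 10 genes, and not for Apoc3 and Apof. The start regions of the 3 plus-strand cluster genes and of Apob follow, because Apoa4 rose against control while its 3 neighbours in NASH vehicle livers lay below the median of all genes, and because the Apob region holds both of the motifs found. Capitals mark TATAAA and matches to CAAAGNNCA, the core of an element bound by the hepatocyte factor HNF4, each searched on both strands. The Apoa1 region is chr9:46228380-46228679 (+), the Apoa4 region chr9:46240594-46240893 (+), the Apoa5 region chr9:46268383-46268682 (+) and the Apob region chr12:7977427-7977726 (+).
Apoa1: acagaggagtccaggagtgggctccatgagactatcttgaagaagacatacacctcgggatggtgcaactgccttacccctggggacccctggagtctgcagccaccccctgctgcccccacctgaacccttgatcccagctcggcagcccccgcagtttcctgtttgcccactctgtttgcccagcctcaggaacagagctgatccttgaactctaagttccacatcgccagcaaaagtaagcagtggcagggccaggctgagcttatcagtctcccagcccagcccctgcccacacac
Apoa4: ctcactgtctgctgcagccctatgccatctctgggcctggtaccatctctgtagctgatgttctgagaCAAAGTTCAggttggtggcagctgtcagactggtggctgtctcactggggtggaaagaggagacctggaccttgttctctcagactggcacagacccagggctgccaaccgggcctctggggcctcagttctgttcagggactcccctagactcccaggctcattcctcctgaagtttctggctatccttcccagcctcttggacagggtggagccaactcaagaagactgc
Apoa5: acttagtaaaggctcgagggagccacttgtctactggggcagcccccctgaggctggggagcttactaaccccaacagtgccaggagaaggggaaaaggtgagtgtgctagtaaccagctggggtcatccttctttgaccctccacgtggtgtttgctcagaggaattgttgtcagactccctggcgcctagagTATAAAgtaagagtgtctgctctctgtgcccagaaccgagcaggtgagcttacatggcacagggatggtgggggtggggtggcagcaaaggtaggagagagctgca
Apob: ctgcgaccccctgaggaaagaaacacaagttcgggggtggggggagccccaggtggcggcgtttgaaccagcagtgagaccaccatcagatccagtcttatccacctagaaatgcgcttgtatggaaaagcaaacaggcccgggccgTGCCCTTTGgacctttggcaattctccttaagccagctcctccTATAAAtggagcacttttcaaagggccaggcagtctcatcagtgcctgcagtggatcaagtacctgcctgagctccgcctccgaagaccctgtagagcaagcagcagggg
The RefSeq start of Apoa4 lies 148 bases inside the gene start that the annotation lists. For Apom the distance is 249 bases and for Mttp 1550 bases. The matched Mttp region therefore does not cover the listed start of Mttp, and it holds the listed start of Trmt10a on the other strand. The motif counts below say nothing about the listed start of Mttp. The Apoa4 region held CAAAGTTCA 182 bases before its RefSeq start and no TATAAA. The Apoa5 region held TATAAA 56 bases before the start, and the Apoa1 region held neither. The Apob region held TATAAA 60 bases before the start, and 103 bases before it a TGCCCTTTG, the reverse complement of a CAAAGNNCA match. Among the 8 matched genes, 3 regions held TATAAA (Apoa2, Apoa5 and Apob) and 2 held CAAAGNNCA (Apoa4 and Apob), against 13.6% and 6.36% of all 32851 start regions of this length. The antioxidant response element core bound by NRF2, TGACNNNGC, was in 0 of the 8 regions and 12.4% of all, and the cAMP response element TGACGTCA was in 0 of the 8 and 1.79% of all.

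The 10 genes held 5.98 ± 0.43% of all TPM (a level per transcript length) in CDDO-Me livers, 6.38 ± 0.28% in NASH vehicle livers and 6.67 ± 0.47% in control livers (SD, n = 4 each). Apoe, the ligand that clears remnant particles, stood highest in each group, followed by Apoa2 and Apoa1. In CDDO-Me livers Apoc3, Apoa4 and Apoa5 came next, and the libraries of neighbouring genes overlapped between Apoc3 and Apoa4, between Apoa4 and Apoa5, and between Apob and Apof. In NASH vehicle livers the order was the same down to Apoa5, with overlap between Apoa2 and Apoa1, Apoa4 and Apoa5, and Apoa5 and Apof. In control livers Apoa4 was last, next to Mttp, with which it overlapped, and Apoe overlapped with Apoa2, Apoa5 with Apof, and Apob with Apom. Apoa4 is the gene whose place differed most, at rank 5 by mean TPM in both NASH groups and rank 10 in control livers.

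**Figure D1:**
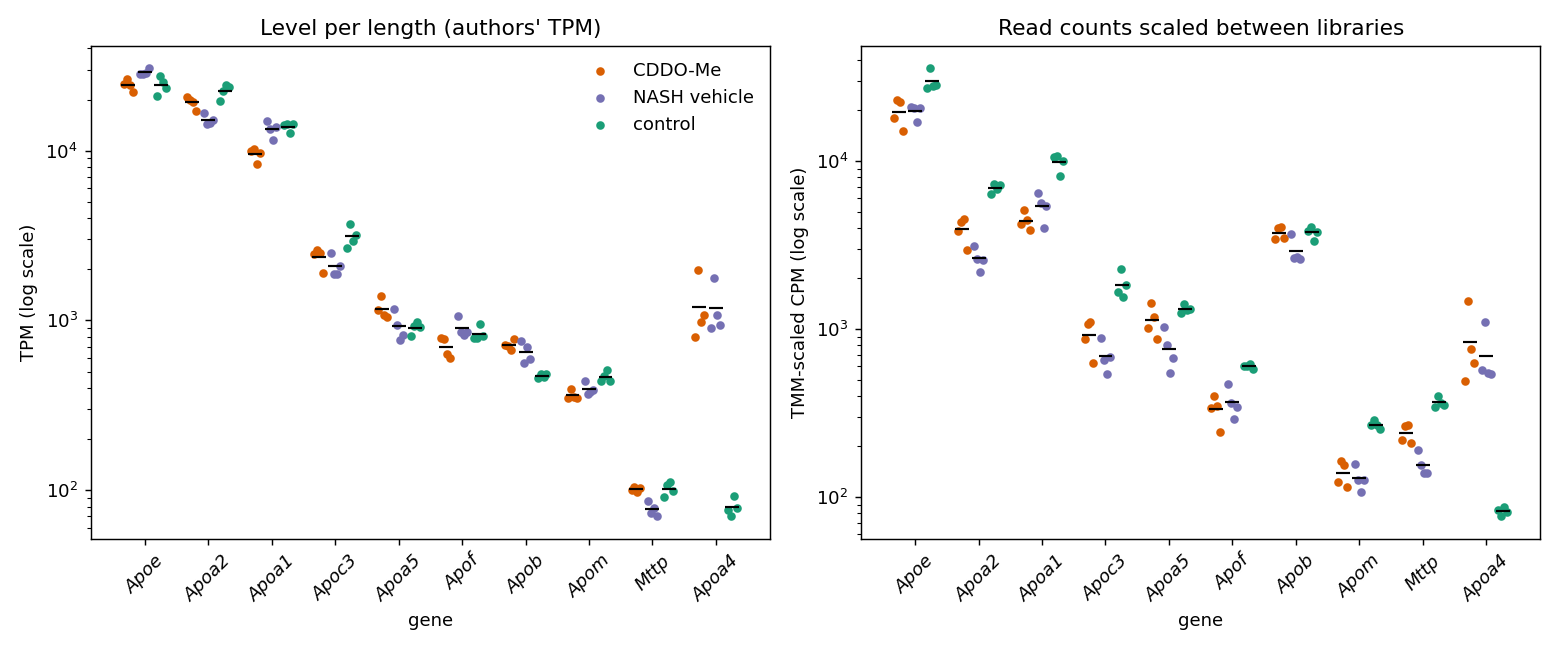
Level of each gene in each of the 12 livers, as the authors' TPM (left) and as TMM-scaled CPM (right), both on log axes; each point is a liver and each bar the mean of 4. Apoa4 is at 794 TPM or more in all 8 NASH livers and at 93.0 TPM or less in control livers, while the place of the groups for Apoe and Apob depends on the scale.

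Total gene reads ran from 28161057 to 33852338 per library. Counts were compared after scaling by edgeR's TMM method, which sets the bulk of genes level between libraries. They are given as TMM-scaled CPM, the reads of a gene relative to the library size multiplied by the library's TMM factor. TMM-scaled CPM is therefore not a plain share of the library's reads. TMM factors averaged 1.08 ± 0.11 in CDDO-Me, 1.2 ± 0.08 in NASH vehicle and 0.78 ± 0.04 in control libraries, so the scaling bears on every comparison with control. Against TMM, scaling by library totals put the median of all genes at 0.62 in NASH vehicle against control, TPM put it at 0.51 and the 19 hepatocyte genes put it at 1.23 (log2). In bulk liver, fewer hepatocytes and less RNA of a gene per hepatocyte cannot be told apart. Summed TPM of 16 macrophage genes was 1251 to 2431 in CDDO-Me, 2701 to 5241 in NASH vehicle and 130 to 224 in control livers. Alb and Ttr, defining hepatocyte products, were at or above 30891 TPM and 4826 TPM in every liver. Control 3 stood apart with 435 TPM over 10 smooth muscle genes, against 14.6 to 19.9 in the other controls, and CDDO-Me 4 had 254 TPM against 30.7 to 93.6 in the other CDDO-Me livers. NASH vehicle 1 also stood apart, with 2701 TPM over the macrophage genes and 97880 TPM over the 19 hepatocyte genes. The other NASH vehicle livers had 4767 to 5241 and 73402 to 77822 TPM. The part of this difference in the calls that change without NASH vehicle 1 was not tested.

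In NASH vehicle livers against control livers, Apoa4 rose and the other 9 genes fell with TMM scaling, by log2 0.37 to 1.41. The 9 included Apoc3, an inhibitor of triglyceride clearance, Apoa2 and Mttp, which fell to between 0.377- and 0.427-fold of control. All 10 passed edgeR's quasi-likelihood test at a Benjamini-Hochberg adjusted p of 0.05, on a background where 59.7% of 16456 genes passed, 29.6% as higher and 30% as lower. Their median log2 fold change was -0.83, beside -0.01 for all genes. Groups did not overlap in CPM for 9 of the 10 (Apob overlapped), and 54.4% of all genes had no overlap. Without control 3 and CDDO-Me 4, the counts were again 1 higher and 9 lower, beside 31.7% and 30.7% of all genes.

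How far those 9 genes lay below control depended on the scaling. Relative to the median of all genes, 9 of the 10 were lower and Apoa4 was higher under TMM, a position that any other factor per library leaves nearly fixed by construction. TPM gave the same 9 and 1, but each of the 9 lay nearer to the median than under TMM, Apob at -0.05 in place of -0.36. In CDDO-Me against control TPM put 2 above the median and 8 below, where TMM put 1 above and 9 below. The position is thus less closely fixed for TPM, which comes from the same libraries and is no separate check. With library totals 4 passed as lower and 2 as higher, beside 8.06% and 60.2% of all genes, and with TPM 4 as lower and 3 as higher, beside 5.31% and 66.3% of all genes. Scaled to the 19 hepatocyte genes, 6 passed as higher and 0 as lower, beside 82.2% and 2.23% of all genes, and those 19 genes themselves had a median of -1.22 under TMM. Apoa2 and Apoc3 were below 0 in all 5 scalings, as was Mttp, whose value under hepatocyte scaling was -0.01.

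**Figure D2:**
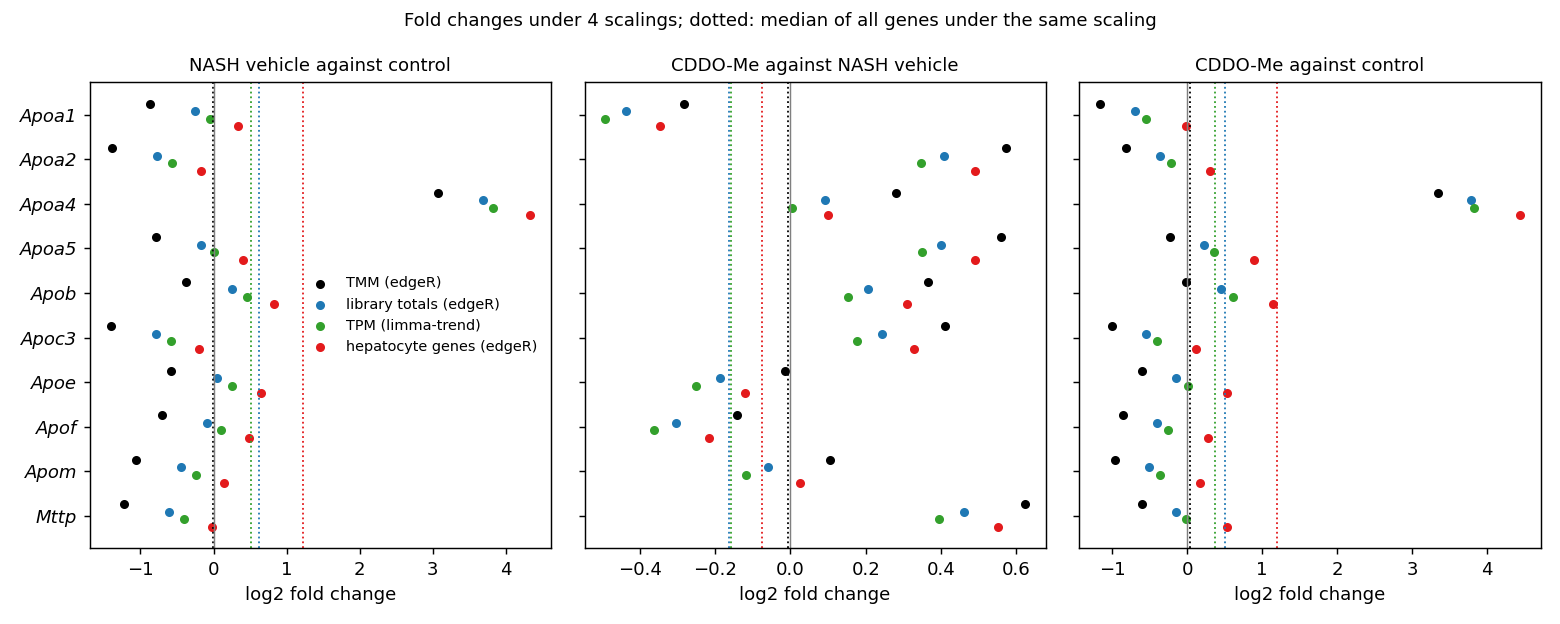
Log2 fold change of each gene under 4 scalings (points) and the median of all genes under the same scaling (dotted lines), for the 3 comparisons. In NASH vehicle against control, the 9 genes other than Apoa4 lie left of the dotted line of each scaling. For library totals and hepatocyte scaling this follows from TMM nearly by construction. For TPM it follows less closely, and the 9 lie nearer to its line. Under hepatocyte scaling 6 of those 9 lie right of 0.

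In CDDO-Me livers against NASH vehicle livers, 2 of the 10 genes rose, Mttp and Apoa2, 0 fell and 8 did not pass. The background was 16.6% of genes passing, 9.39% as higher and 7.24% as lower, so 2 of 10 is close to it. Mttp rose 1.54-fold and Apoa2 1.49-fold, and the median log2 fold change of the 10 was 0.32 beside -0.01 for all genes. Mttp was the gene without overlap in CPM between the groups, where 21.6% of all genes had none. In TPM 5 of the 10 had no overlap here, 6 in NASH vehicle against control and 7 in CDDO-Me against control. The share of all genes without overlap in TPM was not counted. The separations in TPM given per gene below therefore have no background beside them. Mttp kept its call in each of 25 alternatives, while Apoa2 kept its call in 17 of 25. Without control 3 and CDDO-Me 4, 4 genes passed as higher (Apoa2, Apoa5, Apoc3 and Mttp), beside 13.3% of all genes, and without 1 library at a time the count ran from 1 to 4, with 4 without CDDO-Me 4 or without NASH vehicle 1. DESeq2 also gave 4 higher (Apoa2, Apoa5, Apob and Mttp) and 0 lower, beside 10.2% and 11.3% of all genes. Hepatocyte scaling gave 3 higher (Apoa2, Apoa5 and Mttp) and 0 lower, beside 3.92% and 2.01% of all genes. With library totals 2 passed as higher (Apoa2 and Mttp) and 1 as lower (Apoa1), beside 5.63% and 9.66%, and with TPM the same 2 as higher and 2 as lower (Apoa1 and Apof), beside 4.73% and 15.8%.

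In CDDO-Me livers against control livers, Apoa4 rose 10.2-fold and 7 genes fell under TMM, while Apoa5 and Apob did not pass. The background was 49.8% of genes passing, 26.2% as higher and 23.6% as lower, and 43.7% of all genes had no overlap in CPM, as did 8 of the 10. The median of the 10 was -0.71 beside 0.03 for all genes. This comparison shares its CDDO-Me and its control livers with the other comparisons. With TPM, 3 passed as lower and 3 as higher, beside 4.93% and 53.7% of all genes, and with library totals 5 as lower and 2 as higher, beside 6.84% and 52.7%. Without control 3 and CDDO-Me 4, 6 passed as lower and 1 as higher, beside 20.6% and 25.5%. Under hepatocyte scaling 0 passed as lower and 7 as higher, beside 1.91% and 84.3% of all genes.

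**Figure D3:**
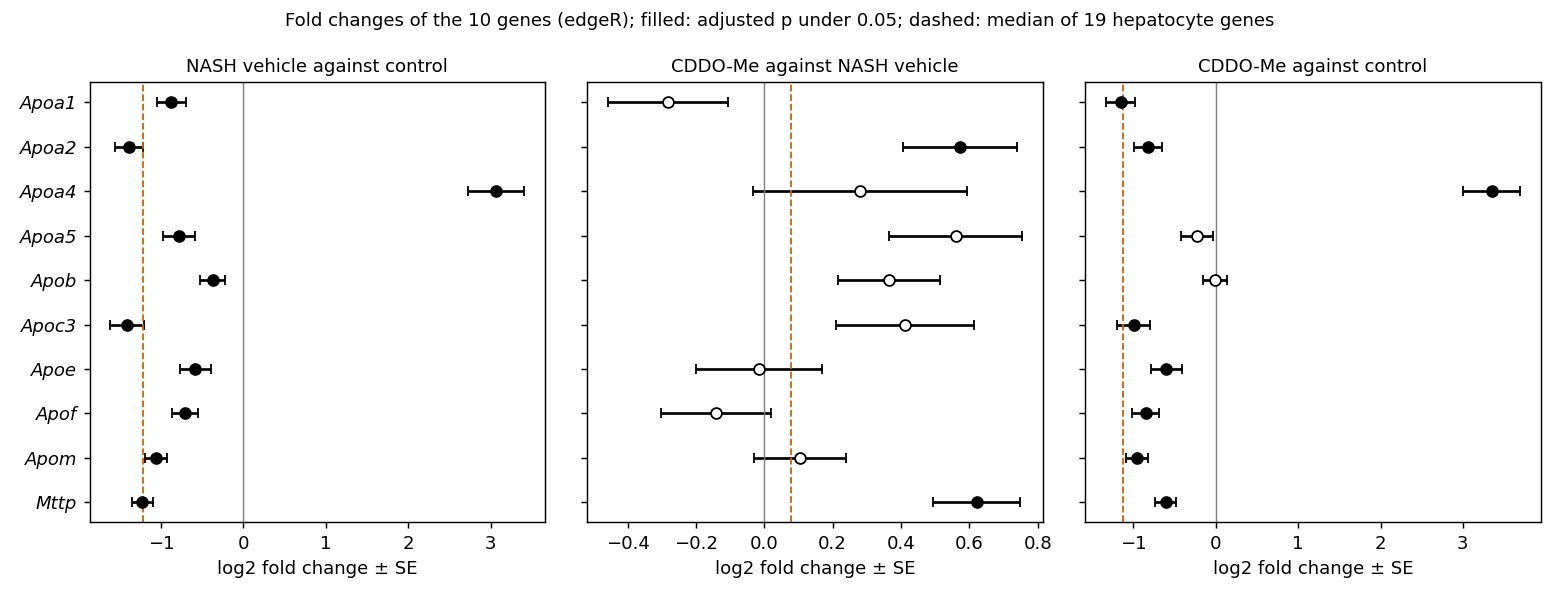
Log2 fold change ± SE of the 10 genes under TMM in the 3 comparisons; filled points passed edgeR's test at an adjusted p of 0.05, and the dashed line is the median of 19 hepatocyte genes. Mttp and Apoa2 are the filled points in CDDO-Me against NASH vehicle; against control, the sides of 0 for genes other than Apoa4 hold for TMM and change for many of them under hepatocyte scaling.

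Mttp transfers triglyceride to nascent apolipoprotein B and is required for VLDL secretion. Mttp was at 101, 105, 97.8 and 102 TPM in CDDO-Me livers, at 86.9, 73.0, 78.4 and 70.01 TPM in NASH vehicle livers, and at 91.4, 107, 112 and 98.8 TPM in control livers. All 4 CDDO-Me livers were above all 4 NASH vehicle livers, and they overlapped with control livers. In CPM it averaged 240.1 ± 31.1 in CDDO-Me, 156 ± 24.5 in NASH vehicle and 365 ± 25.1 in control livers (SD, n = 4 each). Its log2 fold change was 0.62 ± 0.13 in CDDO-Me against NASH vehicle (SE, taken from the size of the change and the F statistic; edgeR adjusted p = 0.00527). Against control it fell by 1.23 ± 0.13 in NASH vehicle (adjusted p = 3.53e-06) and by 0.61 ± 0.13 in CDDO-Me livers (adjusted p = 0.00146), under TMM. Hepatocyte scaling turned the CDDO-Me value against control to 0.54, and with TPM it was -0.01.

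Apob encodes the structural protein that each VLDL particle carries. Apob was at 716, 709.6, 673 and 781 TPM in CDDO-Me livers, at 754, 565, 693 and 589 TPM in NASH vehicle livers, and at 457, 485, 465 and 480.4 TPM in control livers. On this scale every NASH liver was above every control liver. In CPM, however, Apob averaged 3747 ± 335 in CDDO-Me, 2911 ± 506 in NASH vehicle and 3769 ± 301 in control livers, and the groups overlapped. The log2 difference in NASH vehicle against control was -0.37 ± 0.15 under TMM (edgeR adjusted p = 0.0453), 0.25 with library totals, 0.45 with TPM and 0.83 under hepatocyte scaling. The call under TMM was also lost when control 1, 2 or 4, NASH vehicle 2, 3 or 4, or CDDO-Me 1 or 2 was left out (adjusted p = 0.0503 to 0.12), and the direction against control depended on the scaling. Between CDDO-Me and NASH vehicle it was 0.36 ± 0.15 (adjusted p = 0.115), and it passed without NASH vehicle 1, at 0.50. Against control, CDDO-Me livers were at -0.01 ± 0.15 under TMM (adjusted p = 0.968), 0.46 with library totals, 0.61 with TPM and 1.14 under hepatocyte scaling.

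A ratio of 2 genes within a library does not depend on the scaling between libraries, and 5 ratios of TPM were tested in the 3 comparisons with an exact two-sided permutation test. With 4 against 4 livers the smallest p it can give is 0.0286. This became 0.039 after Benjamini-Hochberg adjustment over the 15 tests because most of them reached that smallest p. A ratio that reached it alone would not have passed, so each ratio call leans on the others, which share genes and livers. Apob to Mttp was 7.11, 6.79, 6.88 and 7.63 in CDDO-Me livers, 8.68, 7.73, 8.84 and 8.42 in NASH vehicle livers, and 5.004, 4.55, 4.14 and 4.86 in control livers. The 3 groups did not overlap, with NASH vehicle highest and control lowest. The ratio was 1.82-fold higher in NASH vehicle than in control livers and 0.844-fold in CDDO-Me relative to NASH vehicle livers, and both reached the smallest p (exact permutation p = 0.0286, adjusted p = 0.039). CDDO-Me livers were still 1.53-fold above control livers (exact permutation p = 0.0286, adjusted p = 0.039).

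**Figure D4:**
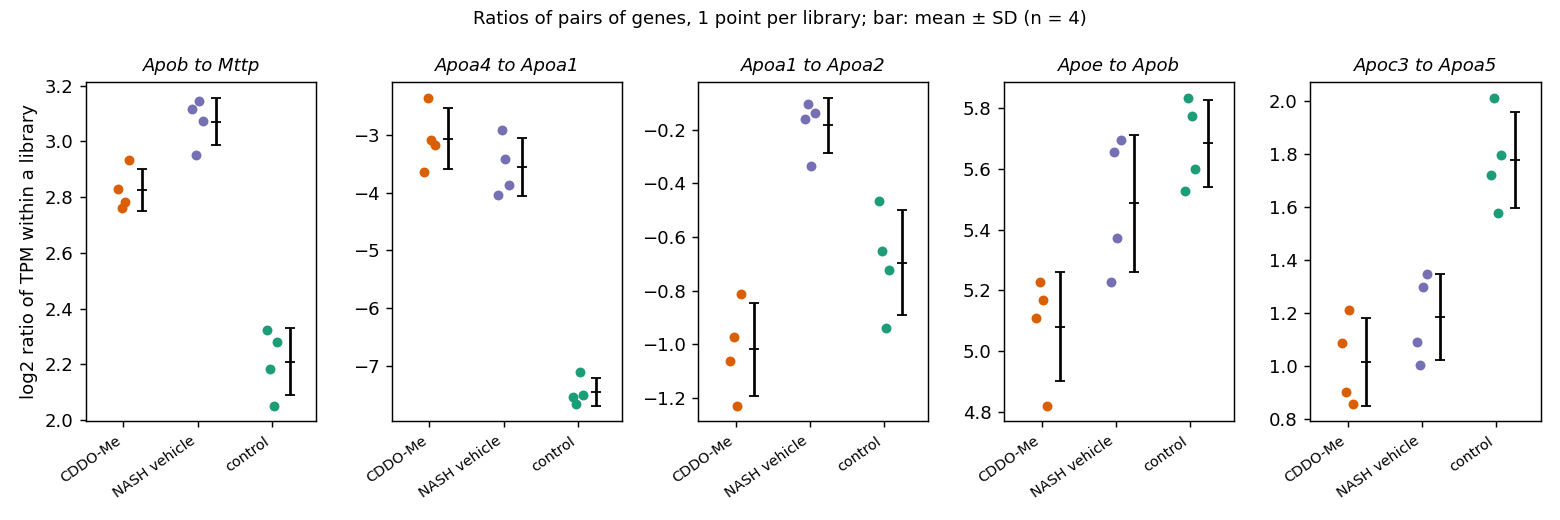
Log2 ratio of TPM of 5 pairs of genes within each liver; each point is a liver, and the bar is the mean ± SD of 4. For Apob to Mttp the 3 groups are apart, with NASH vehicle at the top, and for Apoa1 to Apoa2 NASH vehicle lies above both other groups.

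Apoa1 encodes the main protein of HDL and the cofactor of the cholesterol-esterifying enzyme LCAT. Apoa1 was at 9917, 10168, 8292 and 9716 TPM in CDDO-Me livers, at 14973, 13447, 11492 and 13692 TPM in NASH vehicle livers, and at 14106, 14272, 12752 and 14284 TPM in control livers. All CDDO-Me livers were below all other livers, and NASH vehicle and control livers overlapped. In CPM it averaged 4413 ± 528 in CDDO-Me, 5365 ± 1032 in NASH vehicle and 9833 ± 1141 in control livers. The CDDO-Me livers differed from NASH vehicle livers by -0.28 ± 0.18 (edgeR adjusted p = 0.304, not passing), against a call of -0.44 with library totals and of -0.49 with TPM. Against control, Apoa1 fell by 0.87 ± 0.18 in NASH vehicle (adjusted p = 0.000767) and by 1.16 ± 0.18 in CDDO-Me livers (adjusted p = 0.000132) under TMM. Under hepatocyte scaling the NASH vehicle value turned to 0.33 and the CDDO-Me value was -0.01.

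Apoa2, the second protein of HDL, was at 20703, 19952, 19459 and 17075 TPM in CDDO-Me livers, at 16708, 14429, 14480.2 and 15069 TPM in NASH vehicle livers, and at 19492, 22427, 24446 and 23606 TPM in control livers. NASH vehicle livers were below all others, and CDDO-Me and control livers overlapped. The log2 fold change in CDDO-Me against NASH vehicle was 0.57 ± 0.17 (edgeR adjusted p = 0.0323), although CPM of the groups overlapped. That call was lost in the fit of the 8 libraries of the 2 groups, with the replicate number as a block, and when any of CDDO-Me 1, 2 or 3 or NASH vehicle 2, 3 or 4 was left out. In NASH vehicle livers Apoa2 fell by 1.39 ± 0.17 against control (adjusted p = 1.27e-05) under TMM, and it was below 0 in all 5 scalings. In CDDO-Me livers it fell by 0.82 ± 0.17 against control (adjusted p = 0.00122) under TMM and was at 0.31 under hepatocyte scaling.

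The ratio of Apoa1 to Apoa2, both carried by HDL, separated the treated from the untreated NASH livers. It was 0.479, 0.51, 0.426 and 0.569 in CDDO-Me livers, 0.896, 0.932, 0.794 and 0.909 in NASH vehicle livers, and 0.724, 0.636, 0.522 and 0.605 in control livers. NASH vehicle livers were above all others, and CDDO-Me and control livers overlapped. CDDO-Me was at 0.56-fold of NASH vehicle (exact permutation p = 0.0286, adjusted p = 0.039) and at 0.799-fold of control (exact permutation p = 0.0571, adjusted p = 0.0714). NASH vehicle was 1.43-fold above control (exact permutation p = 0.0286, adjusted p = 0.039).

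Apoa4 encodes an apolipoprotein made mainly in intestine and, in mice, also in liver. Apoa4 was at 794, 1981, 976 and 1076 TPM in CDDO-Me livers, at 905, 1787, 1074 and 939.8 TPM in NASH vehicle livers, and at 76.2, 70.2, 93.0 and 78.9 TPM in control livers. The lowest NASH liver stood far above the highest control liver, and the livers numbered 2 were the highest of both NASH groups. The log2 fold change was 3.07 ± 0.34 in NASH vehicle against control (8.38-fold; edgeR adjusted p = 8.96e-06) and 3.35 ± 0.34 in CDDO-Me against control (10.2-fold; adjusted p = 7.74e-06). It passed as higher in each of 25 alternatives in both, at 2.75 to 4.33 and at 2.93 to 4.43. CDDO-Me against NASH vehicle was 0.28 ± 0.31 (95% interval -0.40 to 0.96, adjusted p = 0.594) and changed sign to -0.13 without CDDO-Me 2. Of the reads of Apoa4, 41.6 to 46.6% were unique in the authors' counting. Gm47528 and Gm10680 overlap it on the other strand with at most 75 and 463 reads, and since the strand of the kit is not stated, their reads cannot be told apart from those of Apoa4. Of the 10 intestinal epithelium genes, 8 were too low to test, and Cdx2, which defines intestinal epithelium, had 0 reads in all libraries. Sis and Lct, also defining, had at most 4 reads in a library. Fabp2, an enterocyte fatty acid carrier that liver also holds, was at 253 to 330 TPM in CDDO-Me, 158 to 223 TPM in NASH vehicle and 69.2 to 101 TPM in control livers, and rose by 0.94 ± 0.21 in CDDO-Me against NASH vehicle (adjusted p = 0.00931). Vil1, an epithelial brush border protein and the other gene of this list that was tested, was at -0.54 ± 0.94 in the same comparison (adjusted p = 0.749), with 24 to 95 reads in CDDO-Me, 44 to 132 in NASH vehicle and 6 to 276 in control libraries.

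Apoc3 encodes an inhibitor of lipoprotein lipase and of remnant uptake, and Apoa5 an activator of the same lipase. Apoc3 was at 2468, 2594, 2479 and 1909 TPM in CDDO-Me livers, at 2485, 1886, 1880.2 and 2099.7 TPM in NASH vehicle livers, and at 2683, 3722, 2934 and 3172 TPM in control livers. Every control liver was above every NASH liver. It fell against control by 1.41 ± 0.21 in NASH vehicle (edgeR adjusted p = 5.84e-05), with values below 0 in all 5 scalings, and by 1.00 ± 0.20 in CDDO-Me livers (adjusted p = 0.0012), which hepatocyte scaling turned to 0.12. Apoc3 in CDDO-Me against NASH vehicle was 0.41 ± 0.20 (adjusted p = 0.188) and passed without CDDO-Me 4, at 0.56.

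Apoa5 was at 1159.6, 1387, 1069.6 and 1053 TPM in CDDO-Me livers, at 1164.5, 939, 763 and 825 TPM in NASH vehicle livers, and at 813, 922, 983 and 913 TPM in control livers. CDDO-Me livers were above all control livers, and NASH vehicle livers overlapped with both. Under TMM, NASH vehicle fell by 0.79 ± 0.20 against control (edgeR adjusted p = 0.00335), while TPM gave 0.01 and hepatocyte scaling 0.41. Apoa5 in CDDO-Me against NASH vehicle was 0.56 ± 0.19 (adjusted p = 0.0656), and it passed in 7 of 25 alternatives, among them without NASH vehicle 1 at 0.74 and without CDDO-Me 4 at 0.67. CDDO-Me against control was -0.23 ± 0.19 under TMM (adjusted p = 0.357) and 0.36 with TPM. Only 30.8 to 35.7% of its reads were unique, and Gm47544 overlaps it on the other strand with at most 60 reads.

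Within libraries, Apoa4 to Apoa1 ran from 0.0801 to 0.195 in CDDO-Me, from 0.0604 to 0.133 in NASH vehicle and from 0.00492 to 0.00729 in control livers. It was 14.8-fold higher in NASH vehicle and 20.9-fold higher in CDDO-Me than in control livers (exact permutation p = 0.0286, adjusted p = 0.039 for each). CDDO-Me and NASH vehicle overlapped (exact permutation p = 0.229, adjusted p = 0.229). Apoc3 to Apoa5 ran from 1.81 to 2.32 in CDDO-Me, from 2.01 to 2.54 in NASH vehicle and from 2.98 to 4.04 in control livers. It was at 0.664-fold in NASH vehicle and 0.59-fold in CDDO-Me relative to control livers (exact permutation p = 0.0286, adjusted p = 0.039 for each). CDDO-Me and NASH vehicle overlapped again (exact permutation p = 0.171, adjusted p = 0.198).

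**Figure D5:**
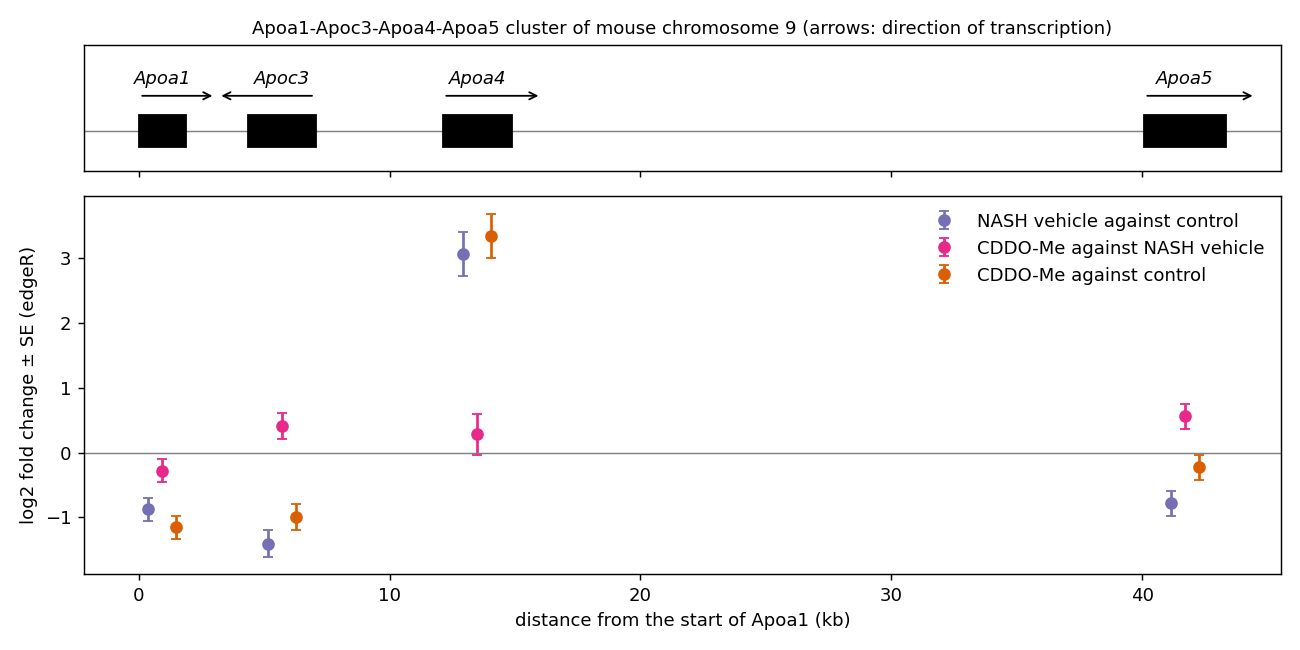
Map of the 4 genes of the chromosome 9 cluster (boxes, to scale; arrows show the direction of transcription) above their log2 fold changes ± SE under TMM, plotted at the middle of each gene. Apoa4 stands at 3.07 and 3.35 against control, and the points of its 3 neighbours against control lie below 0 under TMM, which with library totals (CDDO-Me) or TPM (both) does not hold for Apoa5, and under hepatocyte scaling not for Apoa1 and Apoa5 in NASH vehicle livers or for Apoc3 and Apoa5 in CDDO-Me livers.

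Apoe is made by hepatocytes and by macrophages and is the ligand by which the liver takes up remnants. Apoe was at 24720.0, 26564, 24208 and 22068 TPM in CDDO-Me livers, at 28252, 28418, 28676 and 30539.7 TPM in NASH vehicle livers, and at 21087, 27627, 25385 and 23296 TPM in control livers. NASH vehicle livers were above all others on this scale. In CPM the order was different, with 19654 ± 3719 in CDDO-Me, 19863 ± 1844 in NASH vehicle and 29753 ± 3898 in control livers. NASH vehicle against control was -0.58 ± 0.19 under TMM (edgeR adjusted p = 0.0152), 0.05 with library totals, 0.26 with TPM and 0.65 under hepatocyte scaling, so the direction rests on the scaling. CDDO-Me against control was -0.60 ± 0.19 under TMM (adjusted p = 0.0164), 0.01 with TPM and 0.53 under hepatocyte scaling, and the call under TMM was lost without control 2. Apoe in CDDO-Me against NASH vehicle was -0.02 ± 0.19 (adjusted p = 0.969). The summed TPM of the macrophage genes moved with the NASH groups (above), and its part in the Apoe values was not tested. Apoe to Apob within libraries was 28.3 to 37.4 in CDDO-Me, 37.4 to 51.8 in NASH vehicle and 46.1 to 57.0 in control livers. CDDO-Me was at 0.755-fold of NASH vehicle and 0.659-fold of control (exact permutation p = 0.0286, adjusted p = 0.039 for each). Its highest liver, at 37.433, lay just under the lowest NASH vehicle liver, at 37.448, and with ratios of total or unique reads the groups overlapped and the call against NASH vehicle was lost (exact permutation p = 0.0571, adjusted p = 0.0714). NASH vehicle was at 0.873-fold of control (exact permutation p = 0.2, adjusted p = 0.214).

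Apof encodes lipid transfer inhibitor protein, and Apom carries sphingosine-1-phosphate on HDL. Apof ran from 603 to 787 TPM in CDDO-Me livers, from 824 to 1068 TPM in NASH vehicle livers and from 789 to 951 TPM in control livers, with CDDO-Me below both other groups. Under TMM Apof fell against control by 0.71 ± 0.16 in NASH vehicle (edgeR adjusted p = 0.00188) and by 0.85 ± 0.16 in CDDO-Me livers (adjusted p = 0.000715), and hepatocyte scaling turned these to 0.49 and 0.27. TPM put the NASH vehicle value at 0.11. CDDO-Me against NASH vehicle was -0.14 ± 0.16 (adjusted p = 0.599), and it passed as lower with TPM, at -0.36. Apom ran from 351 to 395 TPM in CDDO-Me, from 368 to 442 TPM in NASH vehicle and from 439 to 510.3 TPM in control livers. CDDO-Me livers were below all control livers, and NASH vehicle livers overlapped with both. Apom fell against control by 1.06 ± 0.14 in NASH vehicle (adjusted p = 2.04e-05) and by 0.96 ± 0.14 in CDDO-Me livers (adjusted p = 7.24e-05) under TMM, and hepatocyte scaling turned these to 0.15 and 0.17. CDDO-Me against NASH vehicle was 0.10 ± 0.14 (95% interval -0.19 to 0.40, adjusted p = 0.65).

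Intron reads, which mostly come from unspliced RNA, gave a further readout. They are a small part of the total gene reads, and the genes were chosen with earlier results of these data known. In NASH vehicle against control, intron reads of Apoa2, Apoc3 and Apom fell by 1.39, 1.00 and 1.25 (edgeR adjusted p = 0.00116, 0.00724 and 0.036), 0 of the 10 rose and 7 did not pass. The background was 5.48% of 12283 genes as lower and 25.8% as higher, and the median of all genes on intron reads was 0.39. The Apom call was lost without control 1, 2 or 4 or NASH vehicle 2, 3 or 4, and with TMM factors of the intron reads themselves 9 of the 10 passed as lower and 0 as higher, beside 16.8% and 19% of all genes and a median of -0.02. In CDDO-Me against NASH vehicle, Apoa5 rose by 1.08 ± 0.27 (adjusted p = 0.0272), the other 9 did not pass, and 9 of the 10 values were above 0. Their median was 0.71 beside 0.08 for all genes, and 1.73% of all genes passed as higher and 0.488% as lower. The Apoa5 call was lost without NASH vehicle 2 or 4 or any single CDDO-Me library (adjusted p up to 0.101). With TMM factors of the intron reads, Apoa5 and Mttp passed as higher and 0 as lower, beside 2.83% and 1.99% of all genes. In CDDO-Me against control, 1 gene passed as higher and 1 as lower, beside 26.5% and 3.39% of all genes. These were Apoa4 at 3.97 ± 0.82 (adjusted p = 0.00048), with 110 intron reads in CDDO-Me and 5 in control libraries, and Apof at -0.91 ± 0.29 (adjusted p = 0.0197), a call lost without control 1, CDDO-Me 2 or CDDO-Me 4. Of the 110 Apoa4 intron reads, 62 came from CDDO-Me 4, and the Apoa4 value ran from 3.29 to 5.56 without 1 library. Gm10680 overlaps Apoa4 on the other strand with up to 463 reads, and the strand of the kit is not stated. With TMM factors of the intron reads 1 passed as higher (Apoa4) and 4 as lower (Apoa2, Apoc3, Apof and Apom), beside 14.6% and 11.2% of all genes.

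Each of the 10 but Apof had a higher value on intron than on total reads in CDDO-Me against NASH vehicle. The medians of all genes were 0.08 on intron and -0.01 on total reads. Apoa1, Apoe and Apoa4 had the widest gaps, and these 3 did not pass on intron reads. Apoa1 was at 0.66 ± 0.28 against -0.28 (edgeR adjusted p = 0.319), Apoe at 0.61 ± 0.29 against -0.02 (adjusted p = 0.421) and Apoa4 at 1.81 ± 0.63 against 0.28 (adjusted p = 0.158). For Apoa1, introns made up 0.523 to 0.671% of all its reads in CDDO-Me livers, 0.227 to 0.382% in NASH vehicle livers and 0.192 to 0.24% in control livers, with no overlap between CDDO-Me and the other groups. Over whole libraries the intron share was 4.50 to 6.31% in CDDO-Me, 4.45 to 6.57% in NASH vehicle and 3.06 to 4.14% in control. How many of all genes had an intron share without overlap between these groups was not counted.

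Of 19 other genes of lipoprotein assembly and secretion, 14 were lower and 2 higher in NASH vehicle against control under TMM, beside 30% and 29.6% of all genes. Library totals called 3 lower and 7 higher, beside 8.06% and 60.2%. Hepatocyte scaling called 0 lower and 16 higher, beside 2.23% and 82.2%. Below the median of all genes were 16 of 19 under TMM and 14 of 19 with TPM. Sar1b, a GTPase of the vesicles that export large lipoproteins, fell by 1.18 ± 0.11 and Tm6sf2, a VLDL lipidation factor, by 1.36 ± 0.14 (edgeR adjusted p = 1.61e-06 and 3.09e-06), and under hepatocyte scaling they were at 0.05 and -0.17. Apobec1, the deaminase that edits Apob RNA, rose by 1.26 ± 0.15 (adjusted p = 1.22e-05) and passed as higher under each of 4 scalings. In CDDO-Me against NASH vehicle, 6 of the 19 were higher and 1 lower, beside 9.39% and 7.24% of all genes, with a median of 0.30. A1cf, known as the RNA-binding partner of Apobec1, rose by 1.08 ± 0.20 (adjusted p = 0.00357), and Apobec1 fell by 0.65 ± 0.15 (adjusted p = 0.0104). A1cf passed under each of 4 scalings, and Apobec1 under all but hepatocyte scaling. Sec23a, a coat protein of export vesicles, rose by 0.43 ± 0.11 (adjusted p = 0.018) and lost its call under hepatocyte scaling (adjusted p = 0.138) and with TPM (adjusted p = 0.0973). Under hepatocyte scaling 1 of the 19 was higher and 0 lower, beside 3.92% and 2.01% of all genes. With TPM the counts of this list were 1 higher and 3 lower, beside 4.73% and 15.8%. Without control 3 and CDDO-Me 4 they were 11 higher and 1 lower, beside 13.3% and 12.1%. In CDDO-Me against control, 1 was higher and 9 were lower under TMM, beside 26.2% and 23.6% of all genes. Hepatocyte scaling there gave 18 higher and 0 lower, beside 84.3% and 1.91%.

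Of 10 tested genes among 11 others named as apolipoproteins, 1 was higher and 6 were lower in NASH vehicle against control under TMM. This stands beside 29.6% and 30% of all genes. The counts were 3 and 4 with library totals, beside 60.2% and 8.06%, and 3 and 2 with TPM, beside 66.3% and 5.31%. Hepatocyte scaling gave 6 and 0, beside 82.2% and 2.23%. Apoc1, a small apolipoprotein next to Apoe, fell by 1.31 ± 0.20 and Apoh by 1.16 ± 0.18 (edgeR adjusted p = 8.34e-05 and 8.2e-05), and under hepatocyte scaling they were at -0.11 and 0.05. With CDDO-Me against NASH vehicle, Apoo was the 1 gene that rose, by 0.67 ± 0.11 (adjusted p = 0.00134), and 3 fell. Among all genes 9.39% rose and 7.24% fell. Clu, an extracellular chaperone, fell by 0.75 ± 0.19 (adjusted p = 0.018) and Apol9b by 1.40 ± 0.34 (adjusted p = 0.0164). Under hepatocyte scaling 0 were higher and 2 lower, beside 3.92% and 2.01% of all genes. Apoo (adjusted p = 0.0625) and Clu (adjusted p = 0.0777) lost their calls there. Apol9a and Apol9b are near-identical copies, so the split of reads between them is uncertain. In CDDO-Me against control, 1 was higher and 6 were lower under TMM, beside 26.2% and 23.6% of all genes. Hepatocyte scaling gave 7 higher and 1 lower, beside 84.3% and 1.91%.

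Of 20 receptors, lipases and remodelling proteins, 2 were higher and 11 lower in NASH vehicle against control under TMM, beside 29.6% and 30% of all genes. Hepatocyte scaling gave 14 higher and 1 lower, beside 82.2% and 2.23%. Lpl, lipoprotein lipase, rose by 4.29 ± 0.23 and Abcg1, a cholesterol exporter, by 3.18 ± 0.12 (edgeR adjusted p = 2.04e-08 and 1.15e-09), and both passed as higher under each of 4 scalings. Macrophages also make both, and 16 of 16 macrophage genes were higher, whose part in these values was not tested. Lipc, hepatic lipase, fell by 1.27 ± 0.12 (adjusted p = 1.42e-06) and was at -0.05 under hepatocyte scaling. With CDDO-Me against NASH vehicle, 2 were higher and 6 lower, beside 9.39% and 7.24% of all genes. Pltp, which moves phospholipid between lipoproteins, fell by 1.14 ± 0.21 and Abcg1 by 0.64 ± 0.10 (adjusted p = 0.00328 and 0.00118), and Gpihbp1, the capillary anchor of Lpl, rose by 1.04 ± 0.20 (adjusted p = 0.00309). Lipg, endothelial lipase, was the other gene that rose, at 0.89, and was named after its values were seen. In that comparison 14 of 16 macrophage genes were lower. Under hepatocyte scaling 1 of the 20 was higher and 3 were lower, beside 3.92% and 2.01% of all genes. Abcg1 lost its call there (adjusted p = 0.0812), and 6 of 16 macrophage genes passed as lower. In CDDO-Me against control, 4 of the 20 were higher and 11 lower under TMM, beside 26.2% and 23.6% of all genes. Hepatocyte scaling gave 13 higher and 1 lower, beside 84.3% and 1.91%.

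Of 22 regulators of apolipoprotein genes, 1 was higher and 16 were lower in NASH vehicle against control under TMM, beside 29.6% and 30% of all genes. The counts were 6 and 6 with library totals, beside 60.2% and 8.06%, and 7 and 3 with TPM, beside 66.3% and 5.31%. Hepatocyte scaling gave 15 and 2, beside 82.2% and 2.23%. Srebf1, which drives fatty acid synthesis genes, fell by 2.02 ± 0.16 (edgeR adjusted p = 4.1e-07) and was lower under each of 4 scalings. Mlxipl, the carbohydrate response factor, fell by 1.51 ± 0.23 (adjusted p = 9.69e-05) and was at -0.31 under hepatocyte scaling. With CDDO-Me against NASH vehicle, Srebf1 fell by 0.74 ± 0.16 and Srebf2, the regulator of cholesterol synthesis, by 0.43 ± 0.08 (adjusted p = 0.00721 and 0.00393), and 2 genes rose. They were Nr5a2, a nuclear receptor of bile acid and HDL genes, by 0.41 ± 0.09 (adjusted p = 0.00931), and Ppargc1a, a coactivator of energy metabolism, by 0.64, which was named after its values were seen. Among all genes 9.39% were higher and 7.24% lower in that comparison under TMM. With TPM 0 of the list were higher and 4 lower, beside 4.73% and 15.8% of all genes. Hepatocyte scaling gave 0 and 1, beside 3.92% and 2.01%. Srebf2 (adjusted p = 0.141) and Nr5a2 (adjusted p = 0.235) lost their calls under hepatocyte scaling. Srebf1 against control fell by 2.76 ± 0.17 in CDDO-Me livers (adjusted p = 6.71e-08). In that comparison 2 of the list were higher and 15 lower under TMM, beside 26.2% and 23.6% of all genes. Hepatocyte scaling gave 14 higher and 2 lower, beside 84.3% and 1.91%.

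The genes most like each of the 10 over the 12 libraries, by Pearson r of log2 CPM among 8686 genes, are given as a description, since the libraries share groups and scaling. Mttp was closest to Grsf1 (r = 0.997), Ak3 (0.995) and Rbpms2 (0.994). Apob was closest to Sec23a (0.969), Acad10 (0.958) and Dennd5b (0.954). Apoa1 was closest to Igf1, Itih2 and Fgb (0.975 to 0.981), and Apoa2 to Arg1, Slc31a1 and Ndrg2 (0.993 to 0.994). Apoa4 was closest to Gpat3, an enzyme of triglyceride synthesis (0.988), and to Susd6 (0.977) and Abhd2 (0.976). Apoc3 was closest to Rdh7, Apoh and Aifm1 (0.994 to 0.995), Apoa5 to D17Wsu92e, Suclg1 and Atg5 (0.963 to 0.972), and Apoe to Ccdc124, Mrps23 and Aph1a (0.987 to 0.990). Apof was closest to Ambp, Vtn and Serpind1 (0.977 to 0.980), and Apom to Gc, Serpinc1 and Serpinf1 (0.992 to 0.993). Between members, r ran up to 0.982 for Apoa2 and Mttp and down to -0.853 for Apoa4 and Apom over the 12 libraries. Within groups, after the group means were taken out, the same pairs were at 0.863 and 0.463.

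Lists of cell type genes stand beside these results as measured, and their part in them was not tested. Of 12 stellate cell genes, 10 were higher and 1 lower in NASH vehicle against control, 1 higher and 6 lower in CDDO-Me against NASH vehicle, and 9 higher and 1 lower in CDDO-Me against control, under TMM. Of 10 cholangiocyte genes, 5, 0 and 4 were higher and 0, 1 and 0 lower in the same comparisons. Among all genes 29.6%, 9.39% and 26.2% were higher and 30%, 7.24% and 23.6% lower. Without control 3 and CDDO-Me 4 the cholangiocyte counts were 10, 0 and 9 higher and 0, 4 and 0 lower. Without those libraries, 31.7%, 13.3% and 25.5% of all genes were higher and 30.7%, 12.1% and 20.6% lower. Of 8 tested smooth muscle genes, 0 passed in any comparison with edgeR over the 12 libraries, and 6 passed as higher in NASH vehicle against control without control 3 and CDDO-Me 4. Of 19 hepatocyte genes, 17 were lower and 1 higher in NASH vehicle against control and 17 lower and 0 higher in CDDO-Me against control under TMM, while 3 were higher and 2 lower in CDDO-Me against NASH vehicle.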

How the data were processed

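RNA was sequenced from 12 liver samples, 4 per group, as poly(A) libraries read with 75 bp paired ends, per the labels' protocols. The authors deposited per library a table of total, unique, exon and intron read counts per gene and of TPM, a level per transcript length. The build was GRCm38 per the submitters' processing notes. The sources used here do not name the aligner, the counter or the use of strand. Total gene read counts were tested with edgeR 4.0.16 (R 4.3.3; robust quasi-likelihood, TMM, filterByExpr with a minimum count of 10 and a minimum total of 15), which left 16456 genes. All 12 libraries entered the fit with group as its term, and p-values were adjusted by Benjamini-Hochberg at 0.05. Intron counts (12283 genes) used the same library sizes and factors. Standard errors are the log2 change over the root of F, and intervals at 95% use the degrees of freedom of that test. Alternatives used limma 3.58.1 (pseudocount 1 for TPM) and DESeq2 1.42.0, other scalings and left-out libraries, and ratios used SciPy 1.17.1. The tests were tried on simulated data. In counts simulated for CDDO-Me against NASH vehicle, edgeR recovered 22.4% of 1.5-fold, 58.2% of 2-fold and 87.9% of 4-fold changes. It made 12 false calls. Among all genes, one that did not pass in this comparison may still have changed by 1.5-fold or 2-fold. For the 8 of the 10 genes that did not pass, the 95% intervals under TMM stayed short of 2-fold. Their ends lay between -0.66 (Apoa1) and 0.98 (Apoa5) in log2. The intervals of Apoa1, Apoa4, Apoa5, Apob and Apoc3 reached past 1.5-fold, and those of Apoe, Apof and Apom did not. Depth was 28161057 to 33852338 gene reads per library. The 10 genes and all lists were chosen with earlier results of these data known. Named are all 10 genes, of each list up to 3 called genes with the lowest p in each comparison, and for each gene the 3 with the highest Pearson r among genes of at least 10 mean CPM, leaving out unnamed gene models, pseudogenes and microRNAs.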

Additional observations from a re-analysis of the deposited data

Results flagged for a closer look

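In 9 of 105 groups of 4 values, 1 library stood apart by Dixon's criterion for a gap between 1 library and the rest, where chance gives about 1 in 20. Apoa1 was at 12751.7 TPM in control 3, against 14106 to 14284 TPM in the other controls. Apoa4 was at 1095.71 CPM in NASH vehicle 2, against 543 to 571 in the other NASH vehicle livers. Apob was at 3667.48 CPM in NASH vehicle 1, against 2615 to 2699 in the others of its group. Apoe was at 17114.9 CPM in NASH vehicle 3, against 20528 to 21033, and at 35555.6 CPM in control 2, against 27142 to 28224 in the other controls. Apof was at 1068.02 TPM in NASH vehicle 1, against 824 to 859, at 950.935 TPM in control 3, against 789 to 809, and on intron reads at 3.41847 CPM in control 1, against 2.35 to 2.52. Apom was at 395.291 TPM in CDDO-Me 2, against 351 to 355 in the other CDDO-Me livers.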

How the results depend on the processing

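Scaling moved the calls against control most. Scaled to hepatocyte genes, 6 members were higher and 0 lower in NASH vehicle against control, beside 82.2% and 2.23% of all genes. In CDDO-Me against control 7 were higher and 0 lower, beside 84.3% and 1.91%, with 14187 genes called there and 975 in CDDO-Me against NASH vehicle. With library totals the counts against control were 2 higher and 4 lower in NASH vehicle and 2 higher and 5 lower in CDDO-Me livers. In CDDO-Me against NASH vehicle 1 was lower. The shares of all genes were 60.2% and 8.06%, 52.7% and 6.84%, and 9.66% lower, in the same order. With TPM the counts were 3 and 4, 3 and 3, and 2 lower, beside 66.3% and 5.31%, 53.7% and 4.93%, and 15.8% of all genes. In NASH vehicle against control, hepatocyte scaling turned Apoa1 to 0.33, Apoa5 to 0.41, Apob to 0.83, Apoe to 0.65, Apof to 0.49 and Apom to 0.15, TPM turned Apoa5 to 0.00873, Apob to 0.45, Apoe to 0.26 and Apof to 0.11, and library totals turned Apob to 0.25 and Apoe to 0.0457. In CDDO-Me against control, hepatocyte scaling turned Apoa2 to 0.31, Apoa5 to 0.90, Apob to 1.14, Apoc3 to 0.12, Apoe to 0.53, Apof to 0.27, Apom to 0.17 and Mttp to 0.54, library totals turned Apoa5 to 0.23 and Apob to 0.46, and TPM turned Apoa5 to 0.36, Apob to 0.61 and Apoe to 0.00652. Apob there, at -0.01, also came to 0.00999 with no filter, 0.0135 with the 50-read filter, 0.0036 with unique reads and 0.0424 with exon reads, and ran from -0.0615 to 0.0331 without 1 library.

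In CDDO-Me against NASH vehicle, DESeq2 and the 10 libraries without control 3 and CDDO-Me 4 gave 4 higher, beside 10.2% and 13.3% of all genes. The 8 libraries of both groups gave 1, and leaving out 1 library gave 1 to 4. Genes called were 4215 in the 10 libraries and 1564 to 3425 without 1 library, against 2736. Apom turned to -0.0600 with library totals and -0.12 with TPM, and Apoe to 0.0923 in the 10 libraries. Without 1 library, Apoa4 ran from -0.13 to 0.60, Apoe from -0.10 to 0.0927 and Apof from -0.24 to 5.0e-05.

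On intron reads, TMM of those reads gave 9 lower in NASH vehicle against control, beside 16.8% of all genes. It gave 2 higher in CDDO-Me against NASH vehicle, beside 2.83%, with 592 genes called against 273. In CDDO-Me against control it gave 4 lower, beside 11.2%, and turned Apoa1 to -0.18, Apoe to -0.41 and Mttp to -0.25. Without 1 library the counts ran from 0 to 1 higher and 2 to 5 lower, from 0 to 2 higher with 157 to 428 genes called, and from 0 to 1 lower in the same order, and Apob in CDDO-Me against control from -0.33 to 0.31.

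Same-numbered libraries did not deviate together: correlations ran from -0.22 to 0.19, and 2 of 12 pairs were over 0.1. In 0 of 12 libraries was the best match in both other groups at once the library of the same number. That count is strict, would be low by chance too, and says little by itself. With the replicate number as a block, 9472, 2177 and 7722 genes were called, 8 members were lower in NASH vehicle against control (Apob was lost), 1 was higher in CDDO-Me against NASH vehicle (Apoa2 was lost), and on intron reads Apob in CDDO-Me against control came to 0.0502. Ratios from total or unique reads kept 4 calls in each comparison with control, and in CDDO-Me against NASH vehicle gave 2 in place of 3, where Apoe to Apob was lost (adjusted p = 0.0714). The causes of these changes were not tested. With 1 library left out, the exact permutation test of a ratio cannot go below p = 0.0571, and control intron reads of Apoa4, 5 in all, are at the limit of this depth.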
